A study of Homo sapiens with 4 samples.

Results

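The HOXA cluster on chromosome 7 was examined together with 500 kb of DNA on either side, in CUT&Tag maps of the protein BAF45D. BAF45D is the product of DPF2 and a subunit of the BAF complex, which moves nucleosomes and so opens chromatin. The genes were the 9 listed members HOXA2, HOXA3, HOXA4, HOXA5, HOXA6, HOXA7, HOXA9, HOXA10 and HOXA11, of 19974 protein-coding genes in the RefSeq table (GRCh38.p14). The cluster was taken as chromosome 7, 27092993 to 27200091 on hg38, a stretch of 107 kb, and every peak of the deposited lists that touched the cluster or its flanks was used. These were 46 of 71189 peaks, which merged into 27 of 44534 regions.

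Spinal cord neural stem cells (NSC) were compared with the human embryonic stem cells (ESC) they came from, with 2 libraries of each, NSC1, NSC2, ESC1 and ESC2. All came from H9, an established line. The NSC had passed through 10 days of neural induction in N2B27 medium with LDN-193189, SB431542, CHIR-99021, FGF2, FGF8 and DAPT, with Y-27632 at passages, then maintenance medium with SB-431542, CHIR-99021 and Hh-Ag 1.5, and finally N2B27 with FGF2 and EGF, while the ESC were kept on Matrigel in mTeSR1. Each assay used 100000 cells, so strong occupancy in few cells and weak occupancy in many cannot be told apart. The labels do not say whether the libraries of a cell type were separate cultures, so their spread may be technical. In CUT&Tag an antibody guides a transposase to the DNA beside its target, and sequenced tags pile up there. A control antibody was not analysed here, so peaks are set only against the tag density of their own library.

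HOX genes encode homeodomain transcription factors that give cells their position along the head to tail axis. Their order on the chromosome follows the order in which they are used along the body. In the HOXA cluster the genes at the low-coordinate end, such as HOXA2, act in the hindbrain and pharyngeal arches, those in the middle act in the neck and upper trunk, and those at the high-coordinate end, such as HOXA10 and HOXA11, act in the lower trunk, limbs and reproductive tract. In pluripotent cells the cluster is silent and covered by Polycomb repressors, which BAF complexes are known to oppose.

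The file headers gave 5566407 and 5377831 tags for NSC1 and NSC2, and 20734829 and 18953543 tags for ESC1 and ESC2. The lists held 29783 and 24669 peaks in NSC1 and NSC2, against 4204 and 12533 peaks in ESC1 and ESC2. Peak lists give no expression, so the cell types could be checked only by occupancy. Of all protein-coding genes, 42.8% had a gene-end peak in NSC1 and 38.1% in NSC2, against 6.67% in ESC1 and 22.8% in ESC2, and 16.2% were called in both NSC libraries alone. Of 8 neural stem cell markers, 7 had a peak within 1 kb of a gene end in NSC1 and NSC2 and none in ESC1 or ESC2, and PAX6 had no such peak in any library. The separation was less sharp in a wider window. In the gene or within 10 kb, 8 of the 8 were called in NSC1, 7 in NSC2, 1 in ESC1 and 5 in ESC2. The shares of all genes there were 64.2% in NSC1, 59.2% in NSC2, 15.3% in ESC1 and 43.4% in ESC2. Of 5 forebrain and midbrain genes, 0 had a gene-end peak in any library. Of 4 ventral spinal cord genes, 2 were called in both NSC libraries alone and 1 in all libraries. Of 8 pluripotency genes, 1 (L1TD1) was called in both ESC libraries and no NSC library, 2 (SOX2 and LIN28A) were called in all 4 libraries, and the other 5, POU5F1 and NANOG among them, had no gene-end peak. Of 5 mesoderm and endoderm genes, 1 was called in NSC1 and 1 in NSC2, against 0 in each ESC library.

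The promoters of HOXA2, HOXA4 and SKAP2 are shown because an NSC peak covered part or all of each. Of the 9 members, 8 matched the promoter table, and of these HOXA2 and HOXA4 had a covered promoter; HOXA5 was not matched. Each is the 250 bases before the start on the minus strand, 5′ to 3′, from RefSeq (GRCh38.p14). Capitals mark the bases inside a peak of NSC1 for HOXA2 and HOXA4, and inside peaks of both NSC1 and NSC2 for SKAP2, the gene that holds most peaks of the flank before the cluster. The HOXA2 promoter is chr7:27102684-27102933, with 75 bases in the NSC1 peak and the first 14 of them also in the NSC2 peak. The HOXA4 promoter is chr7:27130758-27131007, with 129 bases in an NSC1 peak and 0 in an NSC2 peak. The SKAP2 sequence is chr7:26857724-26857973, with 200 bases in peaks of both NSC libraries. It precedes an inner start of SKAP2, inside the gene, whose high end is at 26864590.
HOXA2: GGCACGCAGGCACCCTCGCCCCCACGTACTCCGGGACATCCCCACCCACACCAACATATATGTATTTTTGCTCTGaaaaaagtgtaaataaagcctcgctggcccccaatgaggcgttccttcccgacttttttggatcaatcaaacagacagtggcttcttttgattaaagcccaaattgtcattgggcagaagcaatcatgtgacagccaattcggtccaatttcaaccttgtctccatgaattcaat
HOXA4: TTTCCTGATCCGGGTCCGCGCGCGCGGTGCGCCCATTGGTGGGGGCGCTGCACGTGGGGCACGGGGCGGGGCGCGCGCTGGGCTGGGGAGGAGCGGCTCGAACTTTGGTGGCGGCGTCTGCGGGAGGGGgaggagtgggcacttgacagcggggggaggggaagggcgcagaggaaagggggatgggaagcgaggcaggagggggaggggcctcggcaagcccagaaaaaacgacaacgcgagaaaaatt
SKAP2: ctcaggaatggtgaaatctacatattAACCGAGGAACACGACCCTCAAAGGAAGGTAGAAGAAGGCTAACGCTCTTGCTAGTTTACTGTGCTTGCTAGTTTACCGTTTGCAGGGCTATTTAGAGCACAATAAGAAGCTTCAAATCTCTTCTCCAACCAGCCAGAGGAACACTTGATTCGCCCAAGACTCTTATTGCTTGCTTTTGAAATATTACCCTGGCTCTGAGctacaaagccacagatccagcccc

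BAF45D peaks were called inside the HOXA cluster in both NSC libraries and in neither ESC library. NSC1 had 8 peaks there and NSC2 had 5, against 0 in ESC1 and 0 in ESC2, so the groups did not overlap. NSC averaged 6.5 ± 2.12 peaks and ESC averaged 0 ± 0 (SD, n = 2 each). The peaks covered 2663 and 1246 bp of the cluster in NSC1 and NSC2. Per 100 kb, the cluster held 7.47 and 4.67 peaks in NSC1 and NSC2, which was 7.77 and 5.87 times the mean over the genome of the same library. The genome mean of the ESC lists was 0.136 peaks per 100 kb in ESC1 and 0.404 in ESC2. At those means a stretch as long as the cluster would hold less than 1 peak, so its lack of ESC peaks is not unusual for these lists. With 2 libraries on each side, the smallest two-sided p of an exact permutation test is 0.333, so no test was run. The ESC libraries had more tags and shorter lists than the NSC libraries, and a place missing from a list held no peak strong enough to be listed there. With every list reduced to its strongest 4204 peaks, 1 cluster peak was left in NSC1 and 1 in NSC2, against 0 in each ESC library.

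**Figure D1:**
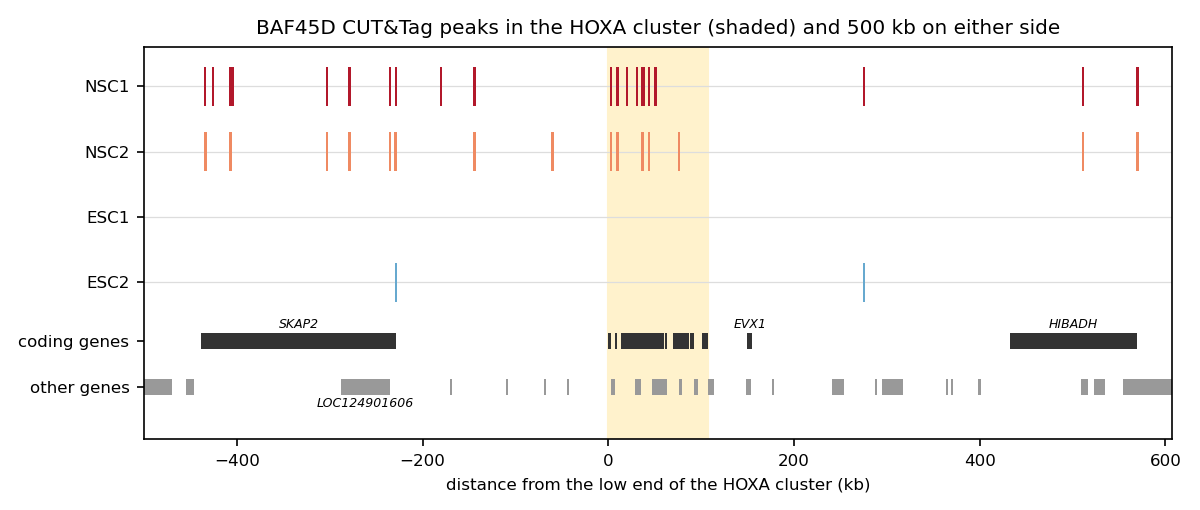
Peaks of each library (coloured ticks, drawn wider than their true length) by distance in kb from the low end of the HOXA cluster, with protein-coding and other genes below. The cluster (shaded) holds 8 peaks of NSC1, 5 of NSC2 and 0 of either ESC library, and ESC2 has 1 peak in each flank.

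The cluster peaks merged into 9 regions. Of these, 4 were called in NSC1 and NSC2 and in no ESC library (NSC-only), where 30.6% of all merged regions were NSC-only, 4 had a peak in NSC1 alone and 1 had a peak in NSC2 alone. Across cluster and flanks, 15 of 27 regions were NSC-only. In the same window 0 of 27 regions were ESC-only, against 1.65% of all regions, and 0 of 27 had a peak in every library, against 3.27%.

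HOXA2, which patterns the hindbrain and the second pharyngeal arch, had a peak just before its start. The NSC1 peak lay at 27102859 to 27103178, 176 bp from the start, with a pileup of 35 tags and a −log10 q of 9.60. The NSC2 peak lay at 27102920 to 27103157, 237 bp from the start, with a pileup of 27 tags and a −log10 q of 5.78. Both ESC libraries had no peak within 10 kb of the gene, and the nearest were 638133 bp away in ESC1 and 235435 bp away in ESC2. The q values are the authors' and rank peaks within 1 list: they exceeded those of 76.3% of the NSC1 list and 55.9% of the NSC2 list. The summits of the 2 libraries were 17 bp apart. The outer part of the promoter printed above for HOXA2 was thus covered, and the bases next to its start were not.

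HOXA4, a gene of the neck region, had the other gene-end call of both NSC libraries. Peaks lay inside the gene at 27129738 to 27130068 in NSC1 and 27129726 to 27130033 in NSC2, 689 and 724 bp from the annotated start. Their −log10 q was 7.25 in NSC1 and 3.23 in NSC2, and their summits were 59 bp apart. NSC1 alone had a further peak across the promoter, at 27130879 to 27131224, with a −log10 q of 4.10. In NSC2 and in both ESC libraries no peak was called at that place.

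HOXA5, which in mice is needed for lung and diaphragm development, had a peak in NSC1 alone, 95 bp beyond the high end of the gene at 27143776 to 27144021, inside the antisense RNA HOXA-AS3. With a −log10 q of 2.00 it stood near the bottom of its list, above 6.3% of the NSC1 peaks. No peak was called at either end of HOXA5 in NSC2, ESC1 or ESC2.

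The strongest peak of the cluster was at no gene end. It lay between HOXA4 and HOXA5, at 27136498 to 27137096 in NSC1 and 27136487 to 27136731 in NSC2, and its −log10 q was 18.7 in NSC1 and 19.0 in NSC2. The pileup at its summit was 41 tags in NSC1 and 37 in NSC2, and the summits were 4 bp apart. It lay 3956 and 4321 bp from the low end of HOXA5 in NSC1 and NSC2, and 5741 and 5730 bp from the start of HOXA4. These values exceeded 92.4% of the NSC1 list and 93.7% of the NSC2 list. The long transcripts of HOXA3 span this place, so the annotation puts the peak inside HOXA3 as well.

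HOXA3, which in mice is needed for the thymus and parathyroid, covers 27107010 to 27152583 because some of its 7 annotated starts lie far from its coding part, and it overlaps HOXA4, HOXA5 and HOXA6. Within this span NSC1 had 6 peaks and NSC2 had 2, against 0 in both ESC libraries. No library had a peak within 1 kb of either end of the gene. One of its inner starts, at 27113842, lay 252 bp from a peak of NSC1 at 27113386 to 27113590 with a −log10 q of 5.76. Another NSC1 peak, at 27124082 to 27124439 inside the antisense RNA HOXA-AS2, had a −log10 q of 1.58, among the weakest of its list. Neither place was called in NSC2.

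At the low end of the cluster, a peak lay over the low end of HOTAIRM1, a long noncoding RNA gene. It ran from 27095853 to 27096110 in NSC1 and from 27095872 to 27096110 in NSC2, with −log10 q of 4.53 and 3.56. The 2 summits were 22 bp apart. Over the 4 cluster sites with a peak in both NSC libraries the summits differed by 4 to 59 bp, and over all 18715 overlapping pairs of NSC1 and NSC2 peaks the median distance was 46 bp.

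HOXA6, HOXA7, HOXA9, HOXA10 and HOXA11 had no gene-end peak in any library. HOXA6 and HOXA7 are trunk genes, HOXA9 and HOXA10 are also regulators of blood progenitors, and HOXA11 is a limb and uterus gene. In NSC1 the nearest peak was 1375 bp from HOXA6, 9695 bp from HOXA7, 18417 bp from HOXA9, 26584 bp from HOXA10 and 37136 bp from HOXA11. In NSC2 it was 8665 bp from HOXA6, 12333 bp from HOXA7, 3471 bp from HOXA9, 1382 bp from HOXA10 and 11934 bp from HOXA11. The distance grew toward HOXA11 in NSC1. In NSC2 it was shortest at HOXA10, where 1 peak lay between HOXA9 and HOXA10.

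That peak, of NSC2 alone, lay at 27169008 to 27169223, inside the antisense RNA HOXA10-AS and the readthrough transcript HOXA10-HOXA9, and 257 bp from the hairpin of MIR196B, with a −log10 q of 5.76. MIR196B encodes a microRNA whose known targets include HOX transcripts, and its main mature strand is shown because the site was the only one called in the high-coordinate part of the cluster. The sequence is from RefSeq (GRCh38.p14), on the minus strand at chr7:27169528-27169549, with the seed in capitals.
hsa-miR-196b-5p: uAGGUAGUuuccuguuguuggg

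Occupancy calls were thus uneven along the cluster. Up to the low end of HOXA6, a stretch of 52.4 kb, NSC1 had 8 peaks and NSC2 had 4. From HOXA6 to the end of the cluster, 54.7 kb, NSC1 had 0 peaks and NSC2 had 1. The cut, at 27145396, lies just past the last NSC1 peak, which ends at 27144021. The contrast of 8 against 0 in NSC1 therefore depends on where the cut was placed and is a description only. Beyond its last cluster peak NSC1 had none for 224 kb, and NSC2 had none for 435 kb, and both stretches take in HOXA10, HOXA11, the long noncoding RNA HOTTIP and the homeobox gene EVX1.

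**Figure D2:**
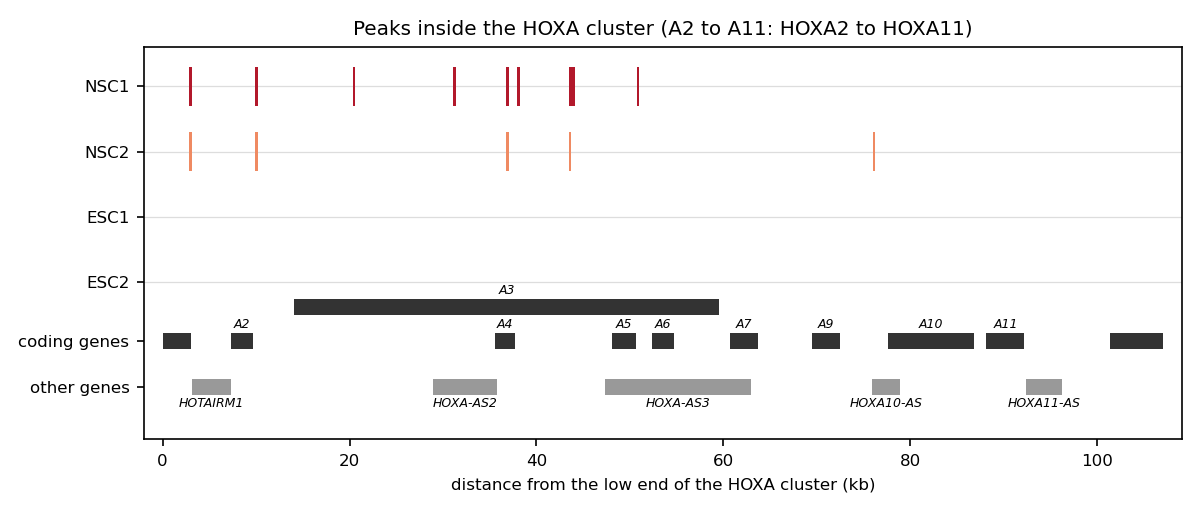
Peaks inside the HOXA cluster by distance in kb from its low end, with protein-coding genes (black, HOXA3 drawn above the others) and noncoding genes (grey); the outermost black boxes are coding genes outside the 9 members. All 8 peaks of NSC1 and 4 of the 5 peaks of NSC2 lie left of HOXA6, and the ESC rows are empty.

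By member, 3 of 9 genes had a gene-end peak in NSC1 and 2 of 9 in NSC2, against 0 of 9 in ESC1 and 0 of 9 in ESC2. Both NSC libraries called 2 of 9, where 34.5% of all genes were called in both. Over all protein-coding genes the shares were 42.8% in NSC1 and 38.1% in NSC2, against 6.67% in ESC1 and 22.8% in ESC2. The NSC shares of the members were somewhat lower, but 9 neighbouring genes are too few to read a difference from this, and it was not tested. The NSC-only class at gene ends held HOXA2 and HOXA4, 2 of 9, where 16.2% of all genes were in that class. With lists of equal length it held 0 of 9. The ESC-only class (0.245% of all genes) and the class of all libraries (5.88%) held 0 of 9.

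With the window widened to the gene and 10 kb around it, 6 of 9 members were called in NSC1 and 7 of 9 in NSC2, against 0 of 9 in each ESC library. The background was 64.2% in NSC1 and 59.2% in NSC2, against 15.3% in ESC1 and 43.4% in ESC2. HOXA2, HOXA3, HOXA4, HOXA5 and HOXA6 were NSC-only, 5 of 9 members, where 19.7% of all genes were NSC-only and 54.9% were called in both NSC libraries. The ESC-only class held 0 of 9 members and 0.701% of all genes. These neighbours share sites: the 5 calls rested on 4 regions, and those of HOXA5 and HOXA6 on the same 1, the strong site between HOXA4 and HOXA5. The members' share was near the background in NSC1, above it in NSC2 and in the NSC-only class, and below it in both ESC libraries. These are counts over 9 neighbouring genes, with no test.

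The cluster peaks stood on a raised tag density. MACS2 compares the pileup at a summit with the tags in the surrounding 10 kb, and from its fold enrichment, (pileup + 1) / (background + 1), that regional tag count can be read back. It came out whole, within 0.05 tags, or at the genome-wide floor in 99.9% of NSC1 entries, 99.9% of NSC2 entries, 99.5% of ESC1 entries and 99.8% of ESC2 entries. Around the 8 cluster peaks of NSC1 it was 234 to 385 tags with a median of 276, and around the 5 of NSC2 it was 141 to 345 tags with a median of 207. Over all peaks the median was 53 tags in NSC1 and 50 in NSC2, and the genome mean was 18.0 and 17.3 tags per 10 kb. The cluster medians were thus 15.4 and 11.9 times the genome mean of the library. The peaks share part of their 10 kb surroundings, so these counts are not independent of each other.

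The density was highest at HOXA2, with 385 tags in NSC1 and 345 in NSC2, which exceeded 99.6% and 99.4% of the peaks in those lists. It was 240 and 185 tags at HOTAIRM1, 295 and 243 at the inner HOXA4 site, and 272 and 207 at the strong site between HOXA4 and HOXA5, in NSC1 and NSC2. The lowest values were 234 tags in NSC1, at HOXA5, and 141 in NSC2, at HOXA10-AS. No ESC peak lay in the cluster, so no regional count could be read there for ESC1 or ESC2, and whether the density differs between the cell types was not tested.

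**Figure D3:**
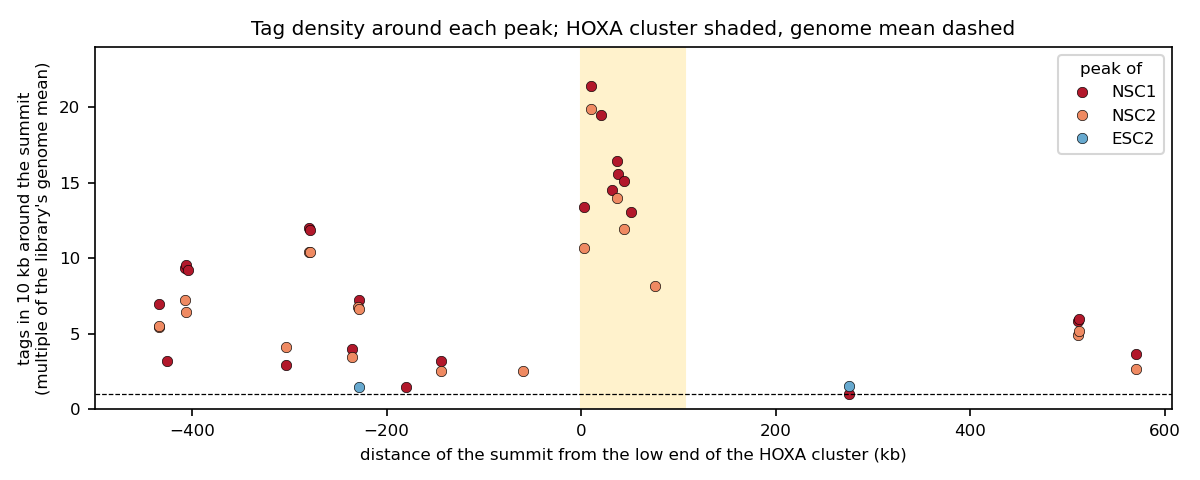
Tags in the 10 kb around each peak summit, as a multiple of the library's genome mean (dashed line at 1), by distance in kb from the low end of the HOXA cluster (shaded). Each point is 1 peak; the cluster points run from 13.0 to 21.4 in NSC1 and from 8.13 to 19.9 in NSC2, and the highest flank point, at SKAP2, stands for 215 tags in NSC1.

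The cluster peaks had a low fold enrichment for their lists, although their pileups were high for those lists. The median fold was 3.56 in NSC1 and 3.62 in NSC2 in the cluster, against 5.48 and 5.49 over all peaks of those lists. The strong site between HOXA4 and HOXA5 was the exception, with folds of 6.52 in NSC1 and 7.39 in NSC2. The lowest pileup of a cluster peak was 15 tags in NSC1 and 16 in NSC2, while the lowest of any peak was 4 in both lists. Among the 525 peaks of NSC1 and 1630 of NSC2 with a regional count in the range seen in the cluster, the lowest pileup was 14 and 10 tags. A site in such a region therefore needed a higher pileup to enter the list, and the part of this in the stretches without peaks was not tested. The median pileup of those 525 and 1630 peaks was 41 and 30 tags, and their median fold was 6.38 and 6.58. The cluster medians of 3.56 and 3.62 were thus low also among peaks of like regional count, and the reason was not tested.

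**Figure D4:**
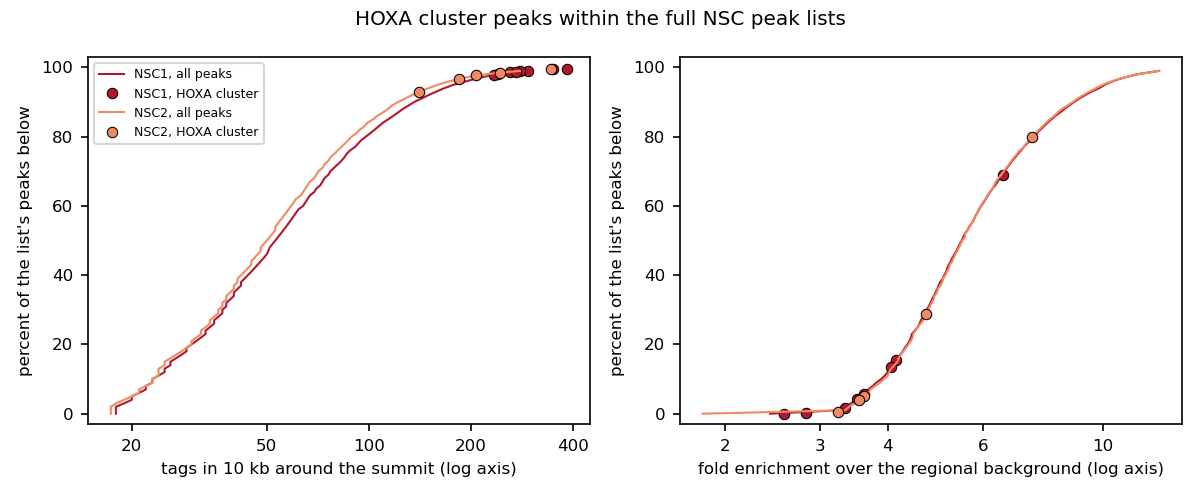
Share of each NSC list's peaks that lie below a value (lines) for the tags in 10 kb around the summit (left) and the fold enrichment (right), both on log axes, with the cluster peaks as points. The cluster peaks sit above 92.8% of their list or more for regional tags, while their median fold lies above 4.96% of the NSC1 list and 5.10% of the NSC2 list.

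The flank before the cluster held 12 peaks in NSC1 and 12 in NSC2, against 0 in ESC1 and 1 in ESC2. In NSC1 and in NSC2, 10 of the 12 lay in or at an end of SKAP2, which encodes an adaptor of Src kinase signalling. The strongest site of the whole window was inside SKAP2 and inside the long noncoding RNA gene LOC124901606, at 26813187 to 26813866 in NSC1 and 26813241 to 26813855 in NSC2. Its −log10 q was 52.5 in NSC1 and 45.0 in NSC2, above 99.6% and 99.4% of those lists, and no ESC peak was called there. A weaker neighbour followed at 26814229 in NSC1 and 26814190 in NSC2 (−log10 q 6.64 and 9.32).

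Other NSC-only sites in SKAP2 began at 26789783 in NSC1 and 26789772 in NSC2 (−log10 q 14.8 and 13.4), at 26685632 and 26685627 (10.1 and 5.71), at 26658557 and 26658752 (9.12 and 9.24), and at 26686464 and 26686459 (3.42 and 4.04). The stretch printed above for SKAP2, before an inner start, was covered by peaks with −log10 q of 7.21 in NSC1 and 4.27 in NSC2, weaker than those at the high end of the gene. Outside genes, 1 NSC-only site lay at 26948647 to 26949205 in NSC1 and 26948632 to 26949064 in NSC2, 144 kb before the cluster in NSC1. The remaining sites before the cluster were called in 1 library. They began at 26667567 (−log10 q 2.86), 26688474 (5.62) and 26913053 (3.2) in NSC1, and at 26659207 (4.81) and 27032955 (8.71) in NSC2.

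The high end of SKAP2 was the only place of the window called in NSC1, NSC2 and an ESC library. The −log10 q there was 30.4 in NSC1 and 32.3 in NSC2, against 12.3 in ESC2, and ESC1 had no peak. The summits lay at 26864737 in NSC1, 26864759 in NSC2 and 26864769 in ESC2. The regional count was 130 tags in NSC1 and 115 in NSC2, against 90 in ESC2, or 7.24 and 6.63 times the genome mean in NSC1 and NSC2 against 1.47 times in ESC2.

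The flank after the cluster held 4 peaks in NSC1 and 3 in NSC2, against 0 in ESC1 and 1 in ESC2, fewer per length than the mean of the genome in NSC1 (0.833 times) and NSC2 (0.754 times). In NSC1 and in NSC2, 3 of these lay in or at the high end of HIBADH, which encodes a mitochondrial enzyme of valine breakdown. The strongest was inside the gene, where LOC107986699 is also annotated, at 27603904 to 27604156 in NSC1 and 27603885 to 27604192 in NSC2, with −log10 q of 17.5 and 20.9, and a weaker neighbour had 5.11 in NSC1 and 3.50 in NSC2. At the high end of HIBADH, beside LOC105375211, the values were 10.8 in NSC1 and 2.57 in NSC2. The remaining site lay outside genes and was called in NSC1 (27368103 to 27368302, −log10 q 3.00) and ESC2 (27368176 to 27368375, 4.61), and not in NSC2 or ESC1. EVX1, which in mice specifies a class of spinal cord interneurons, had no peak at its ends or inside in any library.

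The promoters of the members were searched on both strands for short motifs of factors that act on HOX genes. In the table of 35116 annotated starts, 8 of the 9 members matched, with 15 starts in all, and each promoter ran from 250 bases before to 50 after the start. TGATNNAT, read by PBX with HOX proteins, was found at HOXA2 alone, where 7.40% of all promoters hold it. TGACAG, read by MEIS factors, was found at HOXA2 and HOXA4, where 15.8% of all promoters hold it. At HOXA2 they began at bases 137 and 204 of the printed sequence and at HOXA4 the second began at base 144, counted from the 5′ end, and no peak of any library covered them. GCGCGC was found at HOXA4, HOXA6 and HOXA10 (18.8% of all promoters). Its 4 matches at HOXA4, which overlap in pairs, lay inside the NSC1 peak.

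TTTATG, read by CDX factors and HOX proteins of the lower trunk, was found at 2 of the 15 starts, 1 of HOXA3 and that of HOXA9 (10.6% of all promoters). The CTCF core motif was found at HOXA10 and HOXA11 (10.6%), and AGGTCA, read by nuclear receptors, at no member start (13.8%). A match is a description of these letters and not a bound site. CG pairs numbered 11 in the HOXA2 promoter and 27 in that of HOXA4, and the median of all promoters was 14.

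Cofactors and regulators of HOX genes were called more often in NSC than in ESC, as genes were in general. Of 42 such genes, 18 had a gene-end peak in NSC1 and 18 in NSC2, against 2 in ESC1 and 6 in ESC2, and 9 were NSC-only. Over all genes the shares were 42.8% in NSC1 and 38.1% in NSC2, against 6.67% in ESC1 and 22.8% in ESC2, and 16.2% were NSC-only, so the list's NSC1 share was close to that of all genes. The NSC-only cofactors were MEIS1 (−log10 q 7.42 in NSC1 and 8.65 in NSC2), MEIS2 (10.3 and 8.01), PBX3 (8.02 and 9.32) and PBX4 (5.81 and 7.73), which bind DNA together with HOX proteins. The NSC-only Polycomb genes included SUZ12 (17.2 and 6.79) and CBX8 (5.42 and 7.09). KMT2B, a histone methyltransferase of the Trithorax group, had a gene-end peak in all 4 libraries, and KMT2A and CTCF in all but ESC1. CDX1, CDX2, CDX4, RARA, RARB and RARG, which encode caudal-type homeodomain factors and retinoic acid receptors that switch on HOX genes, had no gene-end peak in any library. In the gene or within 10 kb, RARB had 16 peaks in NSC1, 12 in NSC2, 0 in ESC1 and 2 in ESC2. RARA had 5 in NSC1 and 3 in NSC2, RARG had 1 in NSC1, and CDX1 had 2 in ESC2. CDX2 and CDX4 had none there.

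Inside the bounds of the other 3 HOX clusters, peaks were also called in NSC alone. Peaks numbered 5 and 6 in HOXB, 6 and 3 in HOXC, and 3 and 5 in HOXD in NSC1 and NSC2, and 0 in both ESC libraries at each. Of 9 HOXC genes, 1 had an ESC peak within 1 kb of an end, which lay outside these bounds. Their lengths were 200.2 kb for HOXB, 117 kb for HOXC and 103.4 kb for HOXD, against 107 kb for HOXA. The median tag count in 10 kb around the peaks was 276 in NSC1 and 207 in NSC2 for HOXA, against 216 and 177.5 for HOXB, 223.5 and 216 for HOXC, and 205 and 167 for HOXD. The median fold of the peaks was 3.56 in NSC1 and 3.62 in NSC2 for HOXA. It was 5.36 and 4.06 for HOXB, 4.63 and 4.70 for HOXC, and 4.17 and 4.15 for HOXD. All lay below the medians over all peaks, 5.48 in NSC1 and 5.49 in NSC2, so a low fold was not particular to HOXA. The order of the clusters by number of peaks differed between the 2 NSC libraries, and no test of a difference between clusters was made.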

How the data were processed

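BAF45D was profiled by CUT&Tag in 2 NSC and 2 ESC libraries. Per the submitters' processing notes, the authors used FastQC, Trimmomatic and BWA 0.7.12 with hg38. Per the file headers, peaks were called by the authors for each library alone with MACS2 2.1.0.20150420, without a control, keeping q values up to 0.05 and using a 10 kb regional background; read ends were shifted by -100 bp and extended to 200 bp. The input file names carry the marks uni and dedup. The deposited pileup is a signal in tags at the summit. The deposited −log10 q value and fold enrichment, a ratio, refer to the background of the same library.

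Entries with the same start and end were joined, keeping the strongest, on chromosomes 1 to 22 and X (Python 3.11.15, pandas 2.3.3). Peaks overlapping by at least 1 bp were merged into regions. Gene positions and promoters came from RefSeq tables of GRCh38.p14, the build family of hg38, and a gene-end peak lay at most 1 kb from the first or last base of the gene. Regional tag counts were computed from pileup and fold. The calling steps were tested on simulated peaks at genes that lie apart from other coding genes. Genes as close together as the members were not part of that test. Results are values per library, with no test.

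The members, lists and motifs were chosen with earlier results of these data known. All members, genes of the window with a peak and the strongest sites of each flank are named, and of the 42 regulators up to 6 per class.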

Additional observations from a re-analysis of the deposited data

How the results depend on the processing

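The NSC excess in the cluster and flanks kept its sign under every alternative tried, and its size did not. In the cluster neither ESC list had a peak, so leaving out peaks or a library could not reverse the sign there. In mean peaks of NSC minus ESC, the cluster difference of 6.5 was 3.5 with peaks under a −log10 q of 5 left out (the stricter threshold) and 1 at equal list length, where each list was reduced to its strongest 4204 peaks, and it ran from 5 to 8 when 1 library was left out. At equal list length the 1 cluster peak left in each NSC library was the site between HOXA4 and HOXA5. The covered length, 1954.5 bp, was 1077 bp at the stricter threshold and 422 bp at equal list length, and ran from 1246 bp without NSC1 to 2663 bp without NSC2. The flank difference of 14.5 was 10 at the stricter threshold, 3.5 at equal list length and 4 with flanks of 250 kb, and ran from 13.5 to 15.5 with 1 library left out. The 15 NSC-only regions were 8 at the stricter threshold and 4 at equal list length, and ran from 15 to 22 with 1 library left out. Regions of all libraries numbered 0, and 0 to 1 with 1 library left out, the 1 being the high end of SKAP2 without ESC1. Members that were NSC-only at a gene end numbered 2, and were 1 at the stricter threshold, 0 at equal list length, and 2 to 3 with 1 library left out. Members that were NSC-only within 10 kb numbered 5, and were 2 with no flank around the gene, and 5 to 7 with 1 library left out. The other alternatives moved no value by more than 1.5 times. The ESC lists are the shorter ones, and ESC1 had no peak in the window at all, so no call in ESC rests on more than ESC2.

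No paired analysis was possible because the labels do not say that any NSC library belongs with an ESC library, and no test was run. Matched by replicate number, which the labels do not call a pair, NSC minus ESC was 8 and 5 peaks in the cluster and 16 and 13 in the flanks. A peak list has no counts where no peak was called, so the occupancy of the cluster in ESC has no value here, only the absence of a call.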
